A study of Harpegnathos saltator with 37 samples.

Results

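Central brains of hunting workers of the ant Harpegnathos saltator, sampled 120 days after they were moved to a new nest, were compared with central brains of workers sampled 10 days after the move. The groups were taken from the sample titles, and they hold 9 hunting worker libraries and 4 day 10 worker libraries, 13 of the 37 libraries in the series. The whole series also covers late pupae, dueling and reproductive females and workers of day 20. Per the labels, nests were founded with 25 callow females aged 5 days and 3 males, without a queen or gamergates. Hunting was scored after day 100. The dissected central brain was what remained once the optic lobes, gnathal ganglion and some 95% of the antennal lobes had been removed. Every adult in both groups had thus been through the same isolation, and the labels name no genotype, transgene or drug. How many nests or brains a library stands for is not stated in them.

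Age, hunting and sequencing run were confounded in this comparison. The day 10 workers were all in batch 2, while hunting worker replicates 1 to 4 were in batch 1 and replicates 5 to 9 in batch 4, by the batch number in their internal names. Each difference below is therefore a difference between these sets of libraries, and age, foraging role and run cannot be told apart. RNA came from whole dissected tissue, so fewer cells of a type and less RNA per cell cannot be told apart either.

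In social insects the step from nest work to foraging is known to go with changes in juvenile hormone, a sesquiterpenoid from glands behind the brain, and in insulin signalling. Kr-h1 is a zinc finger transcription factor induced by juvenile hormone, and insulin-like peptides act through Akt and the translation repressor Thor (4E-BP). A young adult ant leaves the pupa with a soft cuticle that continues to be built and tanned in the first days of adult life.

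Recovered depth was 11.09 to 55.78 M reads in hunting workers and 19.21 to 20.84 M in day 10 workers. Neuron markers (6 of 8 found under a symbol, among them Syt1, brp and Syn) summed to 391 to 538 FPKM in hunting workers and to 497 to 611 FPKM in day 10 workers. FPKM is a level per length of gene, here scaled to a depth by the authors. Some libraries stood apart. Hunting worker replicates 2, 3 and 7 had more ribosome and respiratory chain RNA than the other hunting workers. Among day 10 workers, replicate 4 was low in cuticle and photoreceptor RNA, replicate 3 was highest in cuticle RNA, and replicates 1 and 3 were highest in muscle RNA. Without hunting worker replicates 3 and 7 the calls over all genes numbered 3524 (35.3%), with 1810 higher and 1714 lower. Without day 10 worker replicates 1 and 3 they numbered 927 (9.28%, with 4.45% higher and 4.84% lower). Both pairs were picked after the data were seen, the first for standing apart and the second for its muscle RNA.

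Of 9986 genes tested with limma on log2(FPKM + 0.5), 2460 (24.6%) passed an adjusted p of 0.05. Expression was higher in hunting workers for 1299 of them (13%) and lower for 1161 (11.6%). Counts of list members below are to be read against these shares. Most differences were small, with a median size of 0.51 on the log2 scale among called genes, and 318 exceeded 2-fold, 103 higher and 215 lower. Leaving out day 10 worker replicate 3 left 1290 calls (12.9%, with 7.02% higher and 5.9% lower), of which 1286 were shared with the full set. Of the 2460, 945 were also called with each run's hunting workers alone, set against the same 4 day 10 libraries. Calls numbered 1086 with batch 1 alone (10.9%, with 5.92% higher and 4.96% lower) and 2588 with batch 4 alone (25.9%). Every hunting worker lay above every day 10 worker for 4.22% of tested genes, and below for 5.59%. The deposited scaling set the median gene near 0 (0.01). When values were rescaled to TPM the median gene shifted by 0.41 and 95.5% of 5771 calls were higher, against 52.8% with the deposited values. Of all 9986 tested genes 5509 were then higher and 262 lower, and list counts on the TPM scale are to be read against these. With scaling to total reads the shift was 0.23 and 87.2% of 3395 calls were higher. List medians under these scalings are given relative to that shift.

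**Figure D1:**
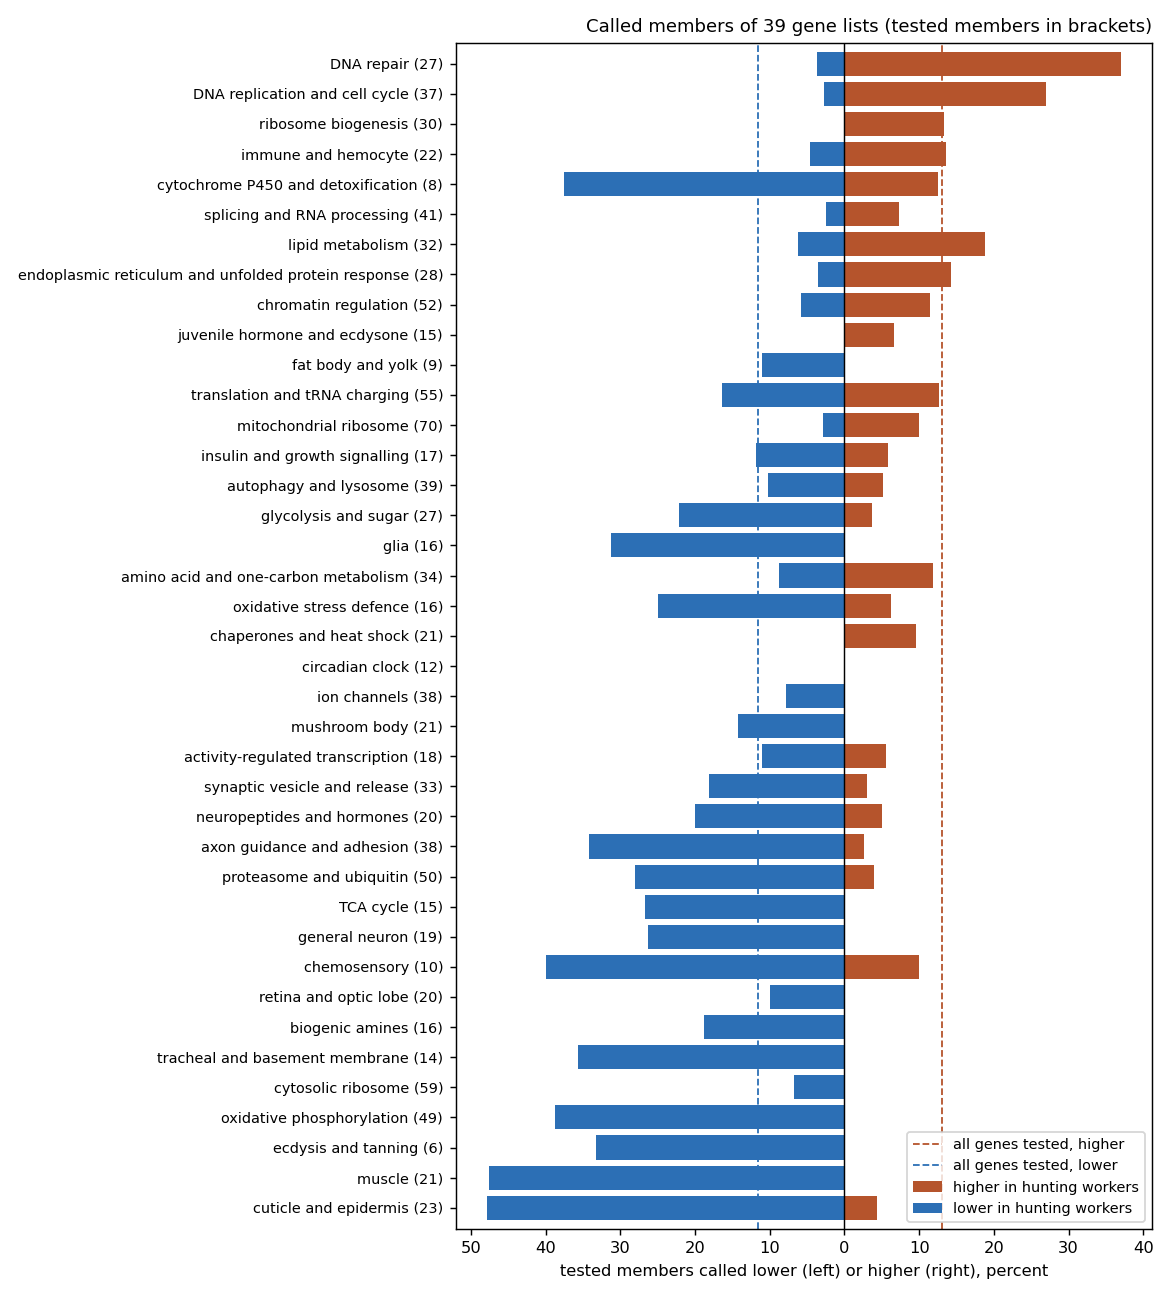
Percent of tested members of each of 39 gene lists that were called lower (bars to the left) or higher (bars to the right) in hunting workers day 120 against workers day 10 (limma adjusted p under 0.05), with lists ordered by their median log2 difference. Dashed lines give the share of all 9986 genes tested, 13% higher and 11.6% lower. DNA repair has the highest share of members called higher, and the cuticle and muscle lists the highest shares called lower.

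Among hormone genes the clearest difference was in Kr-h1. Hunting workers had a lowest, median and highest level of 1.22, 4.57 and 11.3 FPKM, against 0.49, 0.0146, 0.0866 and 0.152 FPKM in the 4 day 10 workers. The groups did not overlap, and the spread among hunting workers was wide. The log2 difference was 2.88 (SE 0.43, adjusted p = 1.23e-05), or 7.38-fold on the scale of FPKM + 0.5. All 4 day 10 values lay below the 0.5 that was added, so the size of the fold rests on it. Over the alternatives run the log2 difference ranged from 2.23 to 5.16, called in each. It was 3.03 with the hunting workers of batch 1 alone and 2.71 with those of batch 4 alone.

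Kr-h1 was the only called member of the juvenile hormone and ecdysone list, where 1 of 15 tested genes was higher and 0 were lower, with a median of 0.06. Juvenile hormone acid methyltransferase jhamt, which makes the hormone's acid precursor into hormone in insects, was at 0.0556, 0.491 and 31.3 FPKM (lowest, median, highest) in hunting workers. Day 10 workers had 0.0857, 7.6, 0.0398 and 0.0232 FPKM. Both groups mixed libraries near 0 with libraries of several FPKM, and the difference of 1.22 (SE 0.98) did not pass the test (adjusted p = 0.379). The ecdysone receptor Ecr averaged 6.65 ± 0.51 FPKM in hunting workers and 7.05 ± 1.27 in day 10 workers (SD, n = 9 and 4). Its partner usp averaged 28.3 ± 5.06 and 31.1 ± 2.57 FPKM in the same order. Neither passed (adjusted p = 0.756 for Ecr and 0.498 for usp), and their log2 differences of -0.07 and -0.16 changed sign with scaling. The activity-regulated nuclear receptor Hr38 averaged 6.24 ± 1.69 FPKM in hunting workers and 5.33 ± 1.04 in day 10 workers (adjusted p = 0.675). The clock gene per averaged 6.75 ± 2.35 FPKM and 6.26 ± 1.91 FPKM in those groups (adjusted p = 0.867).

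In the insulin and growth list 1 of 17 tested genes was higher (5.88%, under the 13% of all genes). In the same list 2 were lower (11.8%, close to the 11.6% of all genes), and the median was 0.02. ILP-2, an insulin-like peptide gene, fell. Its level was 3.05, 6.22 and 8.72 FPKM (lowest, median, highest) in hunting workers, against 11.1, 13.1, 10.9 and 10.2 FPKM in day 10 workers. Every hunting worker library was below every day 10 worker library, by -0.96 on the log2 scale (SE 0.26, adjusted p = 0.00809). Akt, the kinase downstream of the insulin receptor, was higher at 6.76, 8.04 and 8.97 FPKM in hunting workers, against 5.8, 6.2, 5.25 and 5.44 FPKM in day 10 workers. Again the groups did not overlap (log2 difference 0.44, SE 0.08, adjusted p = 8.93e-05). Thor, the 4E-BP that holds back cap-dependent translation, fell to 77.7 ± 18.1 FPKM in hunting workers, against 124 ± 20.3 FPKM in day 10 workers (log2 difference -0.67, SE 0.16, adjusted p = 0.00252). ILP-2 was not called on the TPM scale (adjusted p = 0.0803), nor was it without day 10 worker replicates 1 and 3 (adjusted p = 0.0675) or with a replicate block (-0.81, adjusted p = 0.0723). Thor was not called on the TPM scale (adjusted p = 0.236), with quantile normalization (adjusted p = 0.0695) or with scaling to total reads (adjusted p = 0.0602). With batch 1 alone its adjusted p was 0.098. When hunting worker replicate 3 or 7 was left out, 2 members of the list were higher.

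**Figure D2:**
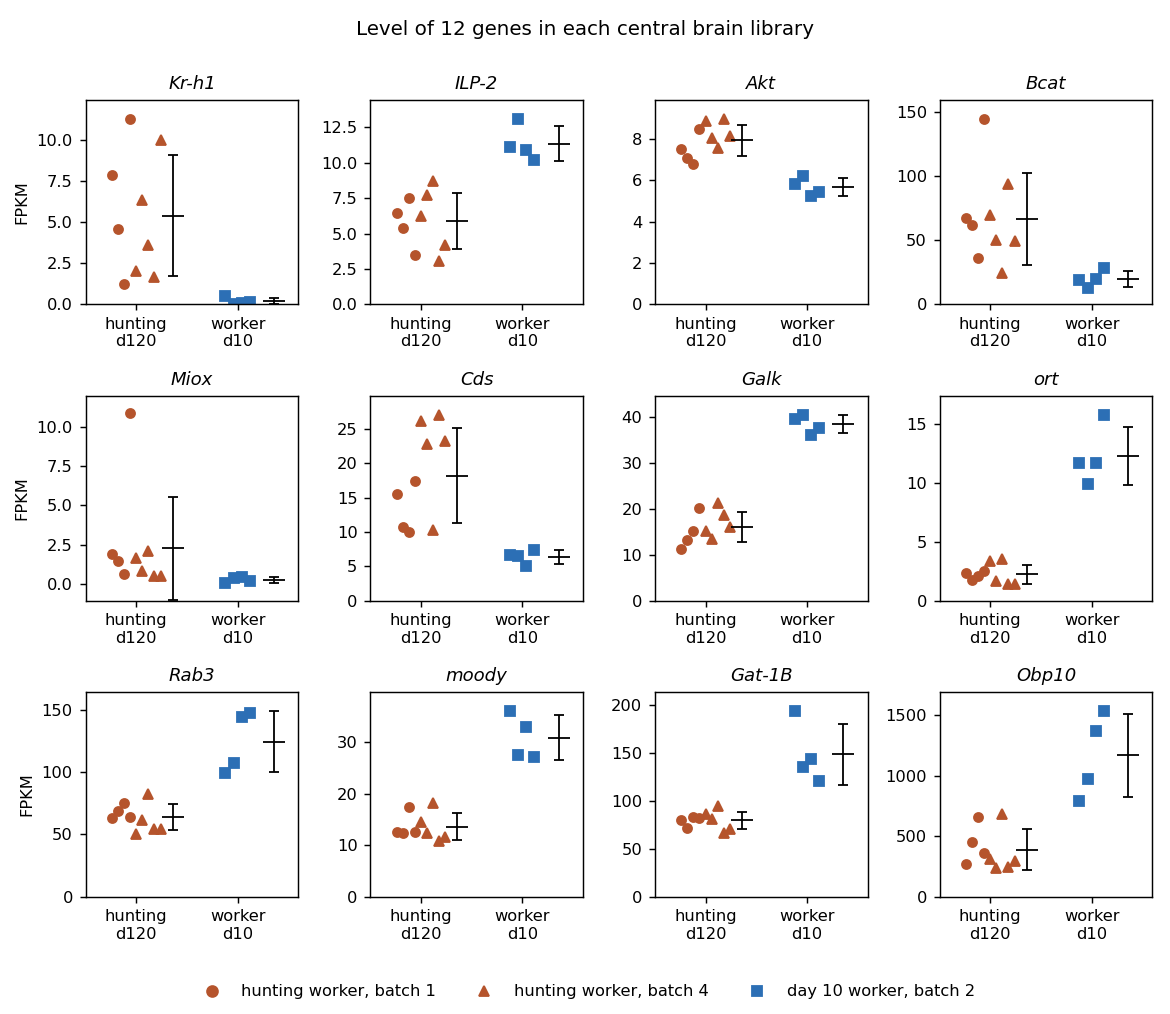
FPKM of 12 genes in each central brain library, hunting workers of day 120 on the left (circles batch 1, triangles batch 4) and day 10 workers on the right (squares, batch 2), on linear axes. Black bars are mean and SD. Kr-h1 lies between 1.22 and 11.3 FPKM in hunting workers and at most at 0.49 in day 10 workers, while Galk, ort, Rab3, moody, Gat-1B and Obp10 lie lower in every hunting worker library.

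Single enzymes of amino acid and sugar metabolism differed, while the shares of their lists called higher were under the 13% of all genes, at 11.8% for amino acid and one-carbon genes and 3.7% for glycolysis and sugar genes. Bcat, the branched-chain amino acid aminotransferase, was at 24.7, 61.9 and 145 FPKM (lowest, median, highest) in hunting workers, against 18.7, 12.6, 20.1 and 28.2 FPKM in day 10 workers. In 8 of 9 hunting worker libraries it lay above all day 10 workers (log2 difference 1.62, SE 0.36, adjusted p = 0.00137). Miox, which opens the myo-inositol ring, was at 0.511, 1.42 and 10.9 FPKM in hunting workers and at 0.0515, 0.348, 0.42 and 0.152 FPKM in day 10 workers. Its groups did not overlap, although replicate 4 alone held the top value (log2 difference 1.46, SE 0.34, adjusted p = 0.00175). P5CS, an enzyme of proline synthesis, was at 5.24, 7.46 and 12.6 FPKM in hunting workers, against 3.44, 4.1, 2.77 and 4.95 FPKM in day 10 workers (log2 difference 1.03, SE 0.21, adjusted p = 0.000731). Without day 10 worker replicates 1 and 3 P5CS was not called (adjusted p = 0.0674).

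Other enzymes were lower. Galactokinase Galk was at 11.3, 15.2 and 21.3 FPKM (lowest, median, highest) in hunting workers, against 39.5, 40.4, 35.9 and 37.6 FPKM in day 10 workers. The gap between the groups was wide compared with their spread (log2 difference -1.27, SE 0.14, adjusted p = 1.01e-07). Arginase, listed as arg, was at 0.669, 0.847 and 0.993 FPKM in hunting workers and at 2.03, 1.77, 2.06 and 2.45 FPKM in day 10 workers (log2 difference -0.92, SE 0.13, adjusted p = 3.56e-06). The glycolytic kinase Pgk averaged 29.6 ± 4.08 FPKM in hunting workers and 44.8 ± 1.37 in day 10 workers, and fell by 0.60 on the log2 scale (SE 0.14, adjusted p = 0.00178). On the TPM scale Pgk was not called (adjusted p = 0.434), nor with scaling to total reads (adjusted p = 0.11). Counted by list, 1 of 27 tested glycolysis and sugar genes was higher and 6 were lower (median -0.03). The amino acid and one-carbon list had 4 of 34 higher and 3 lower (median -0.04). In the sugar list 2 were higher when hunting worker replicate 4 or 7 was left out.

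The lipid metabolism list had 6 of 32 tested genes higher (18.8%, against 13% of all genes) and 2 lower (6.25%, against 11.6%). Its median was 0.09. Cds, which makes CDP-diacylglycerol on the way to phosphatidylinositol, was at 10, 17.4 and 27.1 FPKM (lowest, median, highest) in hunting workers. In day 10 workers it was at 6.59, 6.54, 5.01 and 7.37 FPKM, below every hunting worker library (log2 difference 1.32, SE 0.24, adjusted p = 0.000114). Its difference was 1.00 with batch 1 and 1.65 with batch 4. The very long chain acyl-CoA synthetase gene bgm (bubblegum in Drosophila) averaged 1.36 ± 0.462 FPKM in hunting workers and 0.615 ± 0.156 in day 10 workers (log2 difference 0.71, SE 0.17, adjusted p = 0.00229). The fatty acid binding protein gene fabp was lower, at 63 ± 21.9 FPKM in hunting workers and 101 ± 12 in day 10 workers (log2 difference -0.73, SE 0.18, adjusted p = 0.00281). On the TPM scale fabp had an adjusted p of 0.153, with quantile normalization of 0.0648 and with scaling to total reads of 0.0512. The number lower in the list was 1 when day 10 worker replicate 3 or 4 was left out.

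Respiratory chain genes were lower relative to the median gene. Of 49 tested genes 0 were higher and 19 were lower, among them 6 subunits of the ATP synthase, with a list median of -0.43 against 0.01 over all genes. ATPsyngamma, the rotating shaft of the ATP synthase, was at 64.8, 85.8 and 130 FPKM (lowest, median, highest) in hunting workers, against 140, 133, 178 and 183 FPKM in day 10 workers. No hunting worker reached the lowest day 10 worker (log2 difference -0.79, SE 0.15, adjusted p = 0.000177). The membrane ring subunit gene ATPsynC averaged 148 ± 48.1 FPKM in hunting workers and 245 ± 39 in day 10 workers (log2 difference -0.76, SE 0.16, adjusted p = 0.000804), a call lost on the TPM scale (adjusted p = 0.0615). Ant, the ADP/ATP carrier of the inner membrane, was at 362, 493 and 669 FPKM in hunting workers, against 745, 748, 886 and 1040.0 FPKM in day 10 workers. It fell by 0.78 on the log2 scale (SE 0.14, adjusted p = 0.000122), a call lost with quantile normalization (log2 difference -0.14, adjusted p = 0.406).

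The respiratory chain count depended on single libraries. It was 7 without day 10 worker replicate 3 and 7 without replicate 4. Without hunting worker replicates 3 and 7 it was 31, beside 1714 lower of all 9986 genes. Those hunting worker replicates held the highest medians of this list in their group, so a rise in the count was built into dropping them. Library medians of the list ran from -0.47 to 0.59 in hunting workers and from -0.12 to 0.75 in day 10 workers, so the groups overlapped. The list median was -0.26 with hunting workers of batch 1 (5 lower) and -0.59 with those of batch 4 (23 lower), and -0.38 on the TPM scale relative to all genes. On the TPM scale 10 members were higher and 1 lower, beside 5509 higher and 262 lower of all 9986 genes. The trend of a library's values with gene length moved with this list. It was -0.16, -0.08 and -0.07 (log2 per doubling of length) in hunting worker replicates 3, 7 and 2, whose list medians were 0.59, 0.33 and 0.17. In hunting worker replicate 6 the trend was 0.12 and the list median -0.47. With that trend removed from all libraries, 25 members were lower (1426 of all 9986 genes), and the list median was -0.41. The part of RNA quality in these differences was not tested. The TCA cycle list had 0 of 15 higher and 4 lower (26.7%, against 11.6% of all genes), with a median of -0.26. It had 8 lower after hunting worker replicate 3 was dropped and 7 after replicate 7. Cytosolic ribosomal protein genes had 4 of 59 lower (6.78%, under the 11.6% of all genes) and 0 higher. That count was 15 after dropping day 10 worker replicate 1, 2 after dropping replicate 2 and 0 after dropping replicate 3 or 4. Dropping hunting worker replicate 1, 3 or 7 gave 2, 11 and 12 in that order. With hunting worker replicates 3 and 7 both dropped 28 were lower, beside 1714 of all 9986 genes. The list median was then -0.50, against -0.30 with all libraries. Those replicates held the highest medians of this list among hunting workers, so a fall was built into dropping them. With quantile normalization of all libraries the list median was -0.02. Library medians of the ribosomal list ran from -0.79 to 0.73 in hunting workers and from -0.41 to 0.74 in day 10 workers, which overlap. Hunting worker replicates 1 and 6 lay below every day 10 worker.

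Among mitochondrial ribosomal protein genes 7 of 70 were higher (10%, under the 13% of all genes) and 2 lower, with a median of 0.02. The number higher was 12 once day 10 worker replicate 4 was dropped, and the number lower ranged from 0 to 6 over the fits that dropped a library. The large subunit gene mRpL46 averaged 4.2 ± 1.07 FPKM in hunting workers and 1.56 ± 1.06 in day 10 workers (log2 difference 1.32, SE 0.23, adjusted p = 9.08e-05). The small subunit gene mRpS9 averaged 16.9 ± 1.95 FPKM in hunting workers and 9.52 ± 2.56 in day 10 workers (log2 difference 0.84, SE 0.14, adjusted p = 6.86e-05). Coa8, a gene for assembly of cytochrome c oxidase, was at 8.29 ± 1.16 FPKM in hunting workers and 3.57 ± 2.13 in day 10 workers (log2 difference 1.25, SE 0.21, adjusted p = 6.99e-05). All 9 hunting workers were above all day 10 workers for these 3 genes. Without day 10 worker replicates 1 and 3, mRpL46 (adjusted p = 0.0855) and Coa8 (adjusted p = 0.0735) were not called.

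Proteasome and ubiquitin genes were called lower in 14 of 50 and higher in 2 (median -0.26). On the TPM scale 20 were higher and 0 lower (median -0.23 relative to all genes). Without hunting worker replicates 3 and 7 the deposited values gave 27 lower, beside 1714 of all 9986 genes. Those replicates held the highest medians of this list among hunting workers, so a rise in the count was built into dropping them. The catalytic subunit gene Prosbeta1 averaged 27.6 ± 6.62 FPKM in hunting workers and 42.9 ± 5.54 in day 10 workers (log2 difference -0.64, SE 0.12, adjusted p = 0.000241). Cul1, the scaffold of SCF ubiquitin ligases, went the other way, with 3.56 ± 0.964 FPKM in hunting workers and 2.07 ± 0.317 in day 10 workers (log2 difference 0.61, SE 0.12, adjusted p = 0.00037). The number of lower genes was 4 without day 10 worker replicate 3, 7 without replicate 4, 9 without replicate 2 and 22 without replicate 1. It was 9 without hunting worker replicate 1 or replicate 8. In the endoplasmic reticulum list 4 of 28 were higher (14.3%, close to the 13% of all genes) and 1 was lower. The number higher was 2 once day 10 worker replicate 3 or 4 was dropped, and likewise for hunting worker replicate 2 or 9. Manf, a secreted stress protein of the endoplasmic reticulum with neurotrophic action in Drosophila, averaged 3.79 ± 0.637 FPKM in hunting workers and 1.48 ± 1.11 in day 10 workers (log2 difference 1.26, SE 0.22, adjusted p = 7.64e-05). Without day 10 worker replicates 1 and 3 Manf was not called (adjusted p = 0.0768). Prosbeta1 was not called on the TPM scale (adjusted p = 0.169), nor Cul1 with batch 1 alone (adjusted p = 0.081).

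**Figure D3:**
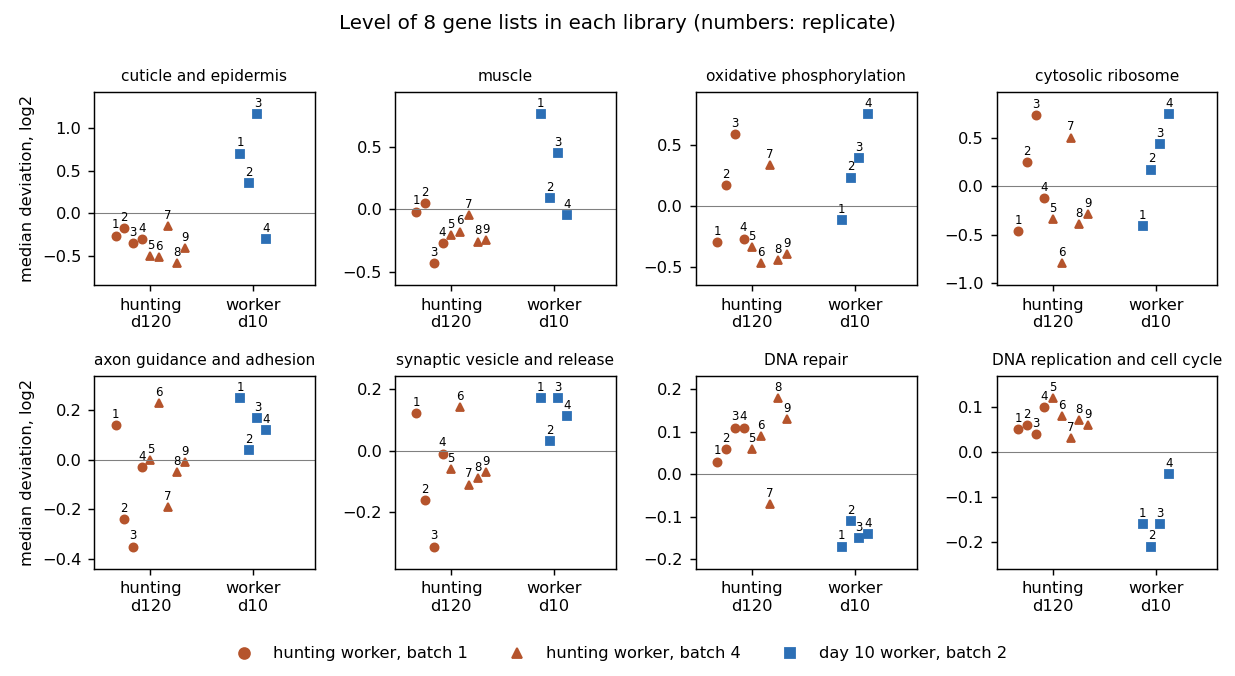
Median deviation of 8 gene lists in each library, in log2(FPKM + 0.5) from each gene's mean over the 13 libraries, with hunting workers of day 120 on the left (circles batch 1, triangles batch 4) and day 10 workers on the right (squares). Numbers are replicates. For the 2 DNA lists the groups separate, whereas hunting worker replicates 2, 3 and 7 reach the day 10 workers for respiratory chain and ribosome genes, and day 10 worker replicate 4 lies among the hunting workers for cuticle genes.

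In the synaptic vesicle list 6 of 33 were lower (Amph, Rab3, Syx1A, Vps33B, cpx and nSyb) and 1 was higher, with a median of -0.20. With TPM scaling 6 were higher and 1 lower, beside 5509 and 262 of all 9986 genes. Rab3, the small GTPase of synaptic vesicles, was at 50.5, 63 and 82.2 FPKM (lowest, median, highest) in hunting workers, against 99.4, 107, 144 and 147 FPKM in day 10 workers. It separated the groups fully (log2 difference -0.95, SE 0.17, adjusted p = 0.000167). Complexin, cpx, which clamps the fusion machinery, was at 112, 156 and 234 FPKM in hunting workers, against 236, 293, 354 and 335 FPKM in day 10 workers. Its log2 difference was -0.91 (SE 0.26, adjusted p = 0.0119), and the call was lost on dropping day 10 worker replicate 3 (adjusted p = 0.0595) and on the TPM scale (adjusted p = 0.0885). With batch 1 alone cpx had an adjusted p of 0.173. Its adjusted p was 0.0695 with quantile normalization and 0.0718 without day 10 worker replicates 1 and 3. The higher gene was alphaSnap, which takes spent SNARE complexes apart together with NSF, at 14.6 ± 3.44 FPKM in hunting workers and 8.43 ± 1.35 in day 10 workers (log2 difference 0.71, SE 0.15, adjusted p = 0.000611).

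Without day 10 worker replicate 3 the synaptic list had 2 members called lower. The list median was 0.05 with quantile normalization, so its direction rested on the scaling. Among ion channel genes 3 of 38 were lower (7.89%, under the 11.6% of all genes) and 0 higher. The list median was -0.12, and 0.01 with quantile normalization, and without day 10 worker replicate 3 the number lower was 1. Of these, the calcium channel subunit gene Ca-beta averaged 117 ± 12 FPKM in hunting workers and 193 ± 15.6 in day 10 workers (log2 difference -0.72, SE 0.20, adjusted p = 0.00824). Ca-beta was not called on the TPM scale (adjusted p = 0.218), with quantile normalization (adjusted p = 0.088) or with batch 1 alone (adjusted p = 0.0618). With day 10 worker replicates 1 and 3 left out its adjusted p was 0.0674.

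The biogenic amine list had 3 of 16 lower and 0 higher (median -0.29). Dropping hunting worker replicate 1, 4 or 6 left 1 of them called, as did dropping day 10 worker replicate 1 or 3. With TPM scaling 1 was higher and 1 lower. Vmat, which loads monoamines into vesicles, was at 62.5, 81.4 and 133 FPKM (lowest, median, highest) in hunting workers, against 120, 163, 181 and 217 FPKM in day 10 workers. A single hunting worker library reached into the day 10 range (log2 difference -0.97, SE 0.20, adjusted p = 0.000638). The other members were genes of histamine, the transmitter of insect photoreceptors. Hdc, histidine decarboxylase, was at 14.3 ± 3.99 FPKM in hunting workers and 23.4 ± 8.42 in day 10 workers (adjusted p = 0.0489), and lost its call in 8 of 13 fits that left out a library, with adjusted p up to 0.216. HisCl1, a histamine-gated chloride channel, was at 1.03 ± 0.321 FPKM in hunting workers and at 2.94, 2.57, 3.2 and 0.596 FPKM in day 10 workers (adjusted p = 0.0374). Its call was lost in 6 of 13 such fits, with adjusted p up to 0.195, and with a replicate block (-0.81, adjusted p = 0.106). Other settings that lost the HisCl1 call were TPM scaling (adjusted p = 0.177), total reads (adjusted p = 0.0951) and limma-voom (adjusted p = 0.0745), among more. TPM scaling also lost the call of Hdc (adjusted p = 0.484).

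The other histamine-gated channel, ort, is no member of the lists and was singled out after its values were seen. It was at 1.37, 2.06 and 3.54 FPKM (lowest, median, highest) in hunting workers, against 11.7, 9.93, 11.7 and 15.8 FPKM in day 10 workers. The groups were far apart (log2 difference -2.27, SE 0.41, adjusted p = 0.000117). Photoreceptor RNA moved in part with these genes. The 7 retina markers found, of 8, summed to 62.6 to 674 FPKM in hunting workers and to 15.3 to 1069.5 FPKM in day 10 workers, and no marker was at 0 in all libraries of a group. The photoreceptor arrestin gene Arr2 was at 25.2, 254 and 529 FPKM (lowest, median, highest) in hunting workers and at 693, 675, 826 and 6.74 FPKM in day 10 workers (adjusted p = 0.9). Day 10 worker replicate 4 thus had the least Arr2 and HisCl1 but the most ort. The part of photoreceptor RNA in these differences was not tested.

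Among neuropeptide and hormone genes 4 of 20 were lower (AstA-R1, ETHR, Eth and FMRFaR) and 1 was higher (Ms), with a median of -0.22. Their shares were 20% lower and 5% higher, against 11.6% and 13% of all genes. The number lower was 2 once day 10 worker replicate 3 was dropped. On the TPM scale 6 were higher and 1 lower, beside 5509 and 262 of all 9986 genes. Eth, the ecdysis triggering hormone, averaged 0.862 ± 0.401 FPKM in hunting workers and 2.71 ± 0.847 in day 10 workers (log2 difference -1.23, SE 0.31, adjusted p = 0.00383). Its receptor gene ETHR averaged 2.63 ± 0.567 FPKM in hunting workers and 3.76 ± 0.436 in day 10 workers (log2 difference -0.46, SE 0.11, adjusted p = 0.00336). ETHR was not called on the TPM scale (adjusted p = 0.631) or with scaling to total reads (adjusted p = 0.0694). With day 10 worker replicates 1 and 3 left out neither Eth (adjusted p = 0.108) nor ETHR (adjusted p = 0.0683) was called. Myosuppressin, Ms, was at 38 ± 7.42 FPKM in hunting workers and 26.8 ± 1.08 in day 10 workers, above all day 10 workers in 9 of 9 libraries (adjusted p = 0.0427). Its call was lost in 10 of 13 fits that left out a library, with adjusted p up to 0.0938, and with a replicate block (0.45, adjusted p = 0.179). Corazonin, Crz, a neuropeptide gene tied to worker behaviour in this ant, was at 48.8, 113 and 304 FPKM (lowest, median, highest) in hunting workers, against 30.3, 62.3, 69.6 and 125 FPKM in day 10 workers. The groups overlapped, and the log2 difference of 0.77 (SE 0.42) did not pass (adjusted p = 0.18), though it did on the TPM scale (1.23, adjusted p = 0.00935).

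Cell adhesion and guidance genes were lower relative to the median gene. Of 38 tested, 13 were lower and 1 was higher (median -0.24). On the TPM scale 11 were higher and 0 lower, beside 5509 and 262 of all 9986 genes. Sema1a, a transmembrane semaphorin, was at 48.1, 58.9 and 78.2 FPKM (lowest, median, highest) in hunting workers, against 88.7, 94, 109 and 117 FPKM in day 10 workers (log2 difference -0.78, SE 0.17, adjusted p = 0.000824). Neuroglian, Nrg, an adhesion molecule of axons and glia, averaged 12.3 ± 1.33 FPKM in hunting workers and 21.6 ± 4.27 in day 10 workers (log2 difference -0.77, SE 0.16, adjusted p = 0.000887). Fasciclin 1, Fas1, averaged 30.1 ± 3.2 FPKM and 49.5 ± 6.27 FPKM in these groups (log2 difference -0.70, SE 0.17, adjusted p = 0.00339). No hunting worker overlapped the day 10 workers for these 3 genes. Lachesin, Lac, was higher, at 11.4 ± 1.96 FPKM in hunting workers and 6.95 ± 1.14 in day 10 workers (log2 difference 0.65, SE 0.16, adjusted p = 0.00386). The number lower was 8, 6 and 7 when day 10 worker replicate 2, 3 or 4 was left out, and 5 with replicates 1 and 3 both left out. On the TPM scale Sema1a (adjusted p = 0.0537), Nrg (adjusted p = 0.0557) and Fas1 (adjusted p = 0.149) were not called. With batch 1 alone Fas1 (adjusted p = 0.053) and Lac (adjusted p = 0.0899) were not called. On the TPM scale the list median relative to all genes was -0.25.

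Glial genes were lower in 5 of 16 and higher in 0, while the list median was -0.03. With TPM scaling 7 were higher and 2 lower, beside 5509 and 262 of all 9986 genes. The 6 glia markers found, of 9 and with Gs2 among them, summed to 335 to 574 FPKM in hunting workers. In day 10 workers they summed to 644 to 944 FPKM. Gs2 and Gat-1B held most of these sums, so the sums say little about the other markers. The part of glial RNA in these differences was not tested. The gene moody, a G protein-coupled receptor of blood-brain barrier glia in Drosophila, was at 10.8, 12.6 and 18.3 FPKM (lowest, median, highest) in hunting workers, against 36.1, 27.5, 33 and 27.1 FPKM in day 10 workers. Gat-1B, a GABA transporter gene, was at 66.2, 81.1 and 95 FPKM in hunting workers, against 194, 135, 144 and 121 FPKM in day 10 workers. Both were lower in every hunting worker than in any day 10 worker, with log2 differences of -1.16 for moody (SE 0.23, adjusted p = 0.000363) and -0.88 for Gat-1B (SE 0.15, adjusted p = 4.44e-05). Glutamine synthetase Gs2 averaged 285 ± 77.7 FPKM in hunting workers and 538 ± 92.4 in day 10 workers without overlap, yet did not pass the fit (log2 difference -0.95, SE 0.47, adjusted p = 0.143). In a fit of the 13 libraries alone its adjusted p was 0.00659. Dropping day 10 worker replicate 1 or 3 left 2 glial genes called lower. Dropping day 10 worker replicate 2 or 4 left 3, as did dropping hunting worker replicate 4, 5 or 9.

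The DNA repair list had 10 of 27 higher (37%, against 13% of all genes) and 1 lower (median 0.21). The replication and cell cycle list had 10 of 37 higher (27%) and 1 lower (median 0.20). Relative to all genes these medians were 0.21 and 0.20 on the TPM scale. Fancd2, of the interstrand crosslink repair pathway, averaged 8.8 ± 2.29 FPKM in hunting workers and 4.87 ± 0.94 in day 10 workers (log2 difference 0.75, SE 0.14, adjusted p = 0.000255). XRCC1, the scaffold of single-strand break repair, was at 5.25, 7.08 and 8.06 FPKM (lowest, median, highest) in hunting workers, against 4.43, 4.68, 3.8 and 4.59 FPKM in day 10 workers. It did not overlap between the groups (log2 difference 0.58, SE 0.10, adjusted p = 0.000103). The condensin gene SMC2 was at 4.03, 4.81 and 5.73 FPKM in hunting workers, against 2.21, 2.9, 2.93 and 3.48 FPKM in day 10 workers (log2 difference 0.64, SE 0.09, adjusted p = 8.37e-06). RfC38, a subunit of the clamp loader, averaged 4.1 ± 0.471 FPKM and 2.32 ± 0.538 FPKM in the same groups (log2 difference 0.72, SE 0.17, adjusted p = 0.00189). These were small differences at low levels. The repair count was 4 without day 10 worker replicate 3, where 7.02% of all genes were called higher. The replication count ranged from 7 to 11 over all fits that left out a library. Without day 10 worker replicates 1 and 3 the higher members numbered 2 in the repair list and 3 in the replication list, beside 4.45% of all genes. Fancd2 (adjusted p = 0.0571) and RfC38 (adjusted p = 0.0597) were then not called.

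Ribosome biogenesis genes were higher in 4 of 30 and lower in 0 (median 0.16), a share close to that of all genes, and 7 were higher once day 10 worker replicate 4 was dropped. RpI1, the largest subunit of RNA polymerase I, averaged 19.9 ± 2.55 FPKM in hunting workers and 14 ± 1.21 in day 10 workers (log2 difference 0.48, SE 0.08, adjusted p = 9.26e-05). Chromatin regulators were higher in 6 of 52 and lower in 3 (median 0.06), again near the share of all genes. CoRest, a corepressor of neuronal genes, averaged 8.71 ± 1.22 FPKM in hunting workers and 6.29 ± 0.796 in day 10 workers (log2 difference 0.42, SE 0.09, adjusted p = 0.000547). The number of chromatin genes called higher was 3 without day 10 worker replicate 3. The number lower was 1 once day 10 worker replicate 2, 3 or 4 was dropped, and likewise for hunting worker replicate 5 or 8.

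In the oxidative stress list 1 of 16 was higher and 4 were lower (25%, against 11.6% of all genes), with a median of -0.09. Gclc, which catalyses the first step of glutathione synthesis, averaged 6.64 ± 0.581 FPKM in hunting workers and 4.54 ± 0.479 in day 10 workers (log2 difference 0.50, SE 0.07, adjusted p = 1.23e-05). The glutathione transferase gene GstD1 averaged 21 ± 6.61 FPKM in hunting workers and 41.4 ± 11.8 in day 10 workers (log2 difference -0.98, SE 0.19, adjusted p = 0.000383). The number lower in that list was 1 without day 10 worker replicate 3 and 1 without replicate 4. In the immune and hemocyte list 3 of 22 were higher and 1 was lower (median 0.13), with 5 higher and 2 lower once hunting worker replicate 7 was dropped. Its share called higher, 13.6%, was close to the 13% of all genes. Rel, the NF-kappaB factor Relish, averaged 13.3 ± 0.816 FPKM in hunting workers and 9.48 ± 0.761 in day 10 workers, with no overlap (log2 difference 0.47, SE 0.10, adjusted p = 0.000814). DNaseII, a lysosomal nuclease, averaged 4.14 ± 1.91 FPKM and 1.25 ± 0.248 FPKM in these groups (log2 difference 1.31, SE 0.22, adjusted p = 7.03e-05). The 2 hemocyte markers found, Hml and Pxn, summed to 2.19 to 5.46 FPKM in hunting workers and to 2.9 to 4.01 FPKM in day 10 workers.

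Some cuticle genes were present in day 10 workers and close to absent in hunting workers. This did not hold for the whole cuticle and epidermis list. It summed to 125 to 322 FPKM in hunting workers and to 314 to 27471.1 FPKM in day 10 workers. Most of the highest day 10 sum was apd-3l. The apidermin gene apd-3l, named for cuticle proteins of the honey bee, was at 0, 0.153 and 0.721 FPKM (lowest, median, highest) in hunting workers, against 7266.6, 8151.1, 26805.5 and 111 FPKM in day 10 workers. Day 10 workers themselves spanned a wide range, with replicate 4 lowest and replicate 3 highest. The log2 difference was -12.34 (SE 1.57, adjusted p = 8.44e-07). The cuticle protein gene Cpr97Ea was at most 0.0973 FPKM in hunting workers and was at 35.2, 85.1, 233 and 1.44 FPKM in day 10 workers (log2 difference -5.99, SE 0.99, adjusted p = 4.44e-05). The chitin-binding protein gene Cpap3-d was at most 0.297 FPKM in hunting workers and at 13.1, 20.8, 51.7 and 0.39 FPKM in day 10 workers (log2 difference -4.11, SE 0.87, adjusted p = 0.000812). It was not called without day 10 worker replicates 1 and 3 (adjusted p = 0.0915).

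Lower in level were 3 genes that shape the cuticle in Drosophila, conv, slf and snsl. In conv the hunting workers reached at most 0.0171 FPKM, while day 10 workers had 3.36, 7.25, 21.5 and 0.231 FPKM (log2 difference -3.21, SE 0.58, adjusted p = 0.00014). For slf the hunting workers reached at most 0.582 FPKM, against 3.39, 4.49, 9.66 and 2.49 FPKM in day 10 workers (log2 difference -2.86, SE 0.38, adjusted p = 2.23e-06). The gene snsl was at most at 0.476 FPKM in hunting workers, against 1.42, 4.61, 9.14 and 2.68 FPKM in day 10 workers (log2 difference -2.43, SE 0.40, adjusted p = 3.8e-05). Day 10 worker replicate 3 held the top value of every cuticle gene named here.

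By count, 11 of 23 tested cuticle and epidermis genes were lower and 1 was higher, with a list median of -0.88, and 6 were lower without day 10 worker replicate 3. With day 10 worker replicates 1 and 3 dropped the number lower was 3 and the median -0.41. The 6 epidermis and cuticle markers found, of 7, summed to 17.4 to 29.6 FPKM in hunting workers and to 129 to 27193.5 FPKM in day 10 workers, with no marker at 0 in all libraries of a group. In each day 10 worker most of that marker sum was apd-3l alone. The part of cuticle-forming tissue in these differences was not tested. Genes without a symbol followed the same profile. LOC112588745, which has no symbol in the reference, was at 0.2, 0.571 and 1.88 FPKM (lowest, median, highest) in hunting workers, against 6507.7, 12790.0, 51836.9 and 460 FPKM in day 10 workers (log2 difference -12.46, SE 1.35, adjusted p = 9.49e-08). LOC105189843 was at 0, 0 and 0.817 FPKM in hunting workers, against 5760.7, 7355.0, 26479.3 and 146 FPKM in day 10 workers (log2 difference -12.41, SE 1.44, adjusted p = 2.3e-07). Together with apd-3l and 2 further genes without a symbol, a set chosen after its values were seen, they took 3.05%, 4.18%, 12.7% and 0.0945% of all reads in the 4 day 10 worker libraries and at most 0.000559% in any hunting worker.

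Some detoxification and matrix genes were lower too. The cytochrome P450 gene Cyp301a1, needed for adult cuticle in Drosophila, was at most 0.0694 FPKM in hunting workers and at 0.891, 3.52, 8.52 and 0.0482 FPKM in day 10 workers (log2 difference -2.15, SE 0.44, adjusted p = 0.000575). Cyp4aa1 was at 0.0509, 0.157 and 0.27 FPKM (lowest, median, highest) in hunting workers and at an even 1.41, 1.98, 1.85 and 1.66 FPKM in day 10 workers (log2 difference -1.73, SE 0.16, adjusted p = 6.98e-09). Of 8 tested P450 and detoxification genes 3 were lower and 1 was higher, and the list median was above 0, at 0.12. The collagen IV gene Col4a1, a main component of basement membranes, was at 0.413, 0.58 and 1.11 FPKM in hunting workers, against 2.91, 4.05, 5.01 and 3.14 FPKM in day 10 workers (log2 difference -1.85, SE 0.25, adjusted p = 2.87e-06). SPARC, a collagen-binding matrix protein gene, averaged 35.9 ± 13.1 FPKM in hunting workers and 82.9 ± 21.1 in day 10 workers (log2 difference -1.22, SE 0.32, adjusted p = 0.0056), but with batch 1 alone it was not called (-0.87, adjusted p = 0.144). The chitin deacetylase gene verm was at 12 ± 2.38 FPKM and 33.7 ± 20.2 FPKM in these groups (log2 difference -1.24, SE 0.29, adjusted p = 0.00189), and the groups overlapped through day 10 worker replicate 4. With day 10 worker replicates 1 and 3 left out verm had an adjusted p of 0.105. The tracheal and basement membrane list had 5 of 14 lower (35.7%, against 11.6% of all genes) and 0 higher (median -0.30).

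Muscle genes were lower in 10 of 21 and higher in 0, with a median of -0.59. The 7 muscle markers found, of 10, summed to 16.7 to 74.9 FPKM in hunting workers and to 48.8 to 468 FPKM in day 10 workers, and none was at 0 in all libraries of a group. The myosin light chain gene Mlc2 was at 0.132, 2.11 and 6.48 FPKM (lowest, median, highest) in hunting workers, against 109, 6.26, 32.3 and 5 FPKM in day 10 workers (log2 difference -3.08, SE 0.95, adjusted p = 0.0167). Scp1, a sarcoplasmic calcium-binding protein gene, was at most 0.968 FPKM in hunting workers and at 88.8, 1.03, 5.57 and 2.5 FPKM in day 10 workers (log2 difference -3.46, SE 0.94, adjusted p = 0.00789). In Mp20, a muscle protein gene, hunting workers averaged 5.82 ± 6.52 FPKM and day 10 workers 18.8 ± 5.11 FPKM (log2 difference -2.21, SE 0.58, adjusted p = 0.00628). Without day 10 worker replicate 1 the count was 3, Mlc2 had a difference of -2.25 (adjusted p = 0.098) and Scp1 of -2.24 (adjusted p = 0.0771). Without replicate 3 the count was 4 and Mlc2 was not called (adjusted p = 0.0737). Without both, 0 of 21 muscle genes were called lower. That pair was picked as the day 10 worker libraries with most muscle RNA, so a loss of muscle calls was built into the choice. With batch 1 alone Mlc2 (adjusted p = 0.0939) and Mp20 (adjusted p = 0.088) were not called. With a replicate block neither Mlc2 (-2.56, adjusted p = 0.14) nor Scp1 (-2.82, adjusted p = 0.118) was called. The part of muscle RNA in these differences was not tested.

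In the chemosensory list 4 of 10 were lower (CSP2, Obp1, Obp10 and Obp11) and 1 was higher (Ir68a). Obp10, an odorant-binding protein gene, was the most abundant of the named ones, at 241, 309 and 682 FPKM (lowest, median, highest) in hunting workers, against 795, 973, 1370.4 and 1537.4 FPKM in day 10 workers. All hunting workers were below all day 10 workers (log2 difference -1.62, SE 0.25, adjusted p = 1.58e-05). Dropping day 10 worker replicate 3 left 2 members lower, and the higher call was lost in 8 of 13 fits that left out a library. Reads may be shared between odorant-binding protein genes, so these values are uncertain in how they divide among members. The gene bnb, named bangles and beads in Drosophila, was lower too, with 262 ± 87.8 FPKM in hunting workers and 579 ± 93.1 in day 10 workers (log2 difference -1.18, SE 0.22, adjusted p = 0.000213).

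Among called genes without a symbol, 3 that were higher in hunting workers differed in how even they were. LOC109504536, a pseudogene in the reference, was at 388, 739 and 1039.3 FPKM (lowest, median, highest) in hunting workers, against 64.1, 174, 115 and 286 FPKM in day 10 workers (log2 difference 2.36, SE 0.36, adjusted p = 1.58e-05). LOC105182648 was at 5.46, 15.9 and 62.3 FPKM in hunting workers and at 1.81, 2.95, 2.11 and 4.05 FPKM in day 10 workers (log2 difference 2.59, SE 0.35, adjusted p = 2.63e-06). Neither overlapped between the groups. LOC105182112 was listed at 0 in all 4 day 10 workers and at 0.11, 0.537 and 58.3 FPKM in hunting workers, where 3 libraries (replicates 2, 3 and 9) were above 18 FPKM and replicates 4 to 8 were all below 1 FPKM. Its adjusted p was 0.00532, and 0.127 with the hunting workers of batch 4 alone.

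Reproductive females gave a comparison of the same days in other libraries from the same runs. It set 6 dominant gamergates of day 120 against 5 duelers of day 10. The run term within day 120 was fitted to gamergates and hunting workers together, so the 2 comparisons were not independent fits. The gamergate comparison had 2510 called genes (25.1%), and 3399 without the run term. For the worker comparison the count without that term was 2487. The 2 sets had 1590 genes in common, 64.6% of the worker calls and 63.3% of the gamergate calls, and all 1590 had the same sign. The difference between days was tested for a caste effect by an interaction term in limma. It passed for 0 of 9986 genes, with 320 at an unadjusted p under 0.05, and limma-voom on recovered reads also gave 0.

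Among named genes the smallest interaction p was that of Vgn, a symbol the reference does not expand. Vgn was at 0.277, 14.1 and 349 FPKM (lowest, median, highest) in hunting workers and at 2.01, 20.7, 40.6 and 7.48 FPKM in day 10 workers (log2 difference 0.53, SE 1.01, adjusted p = 0.736). In gamergates the mean was 1326.4 FPKM at day 120, against 4.73 FPKM in duelers of day 10 (log2 difference 6.71, adjusted p = 3.62e-05). The interaction was -6.18 (limma adjusted p = 0.414). Kr-h1 averaged 0.68 FPKM in gamergates and 0.116 FPKM in duelers (log2 difference 1.03, adjusted p = 0.0913), with an interaction of 1.85 (limma adjusted p = 1). ILP-2 averaged 18.3 FPKM in gamergates and 19.8 FPKM in duelers (log2 difference -0.14, adjusted p = 0.744), with an interaction of -0.82 (limma adjusted p = 1). P5CS had an interaction of 0.86 and Crz of 1.49 (limma adjusted p = 1 for each). None of these interactions passed adjustment, so a difference between castes was not shown for them.

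**Figure D4:**
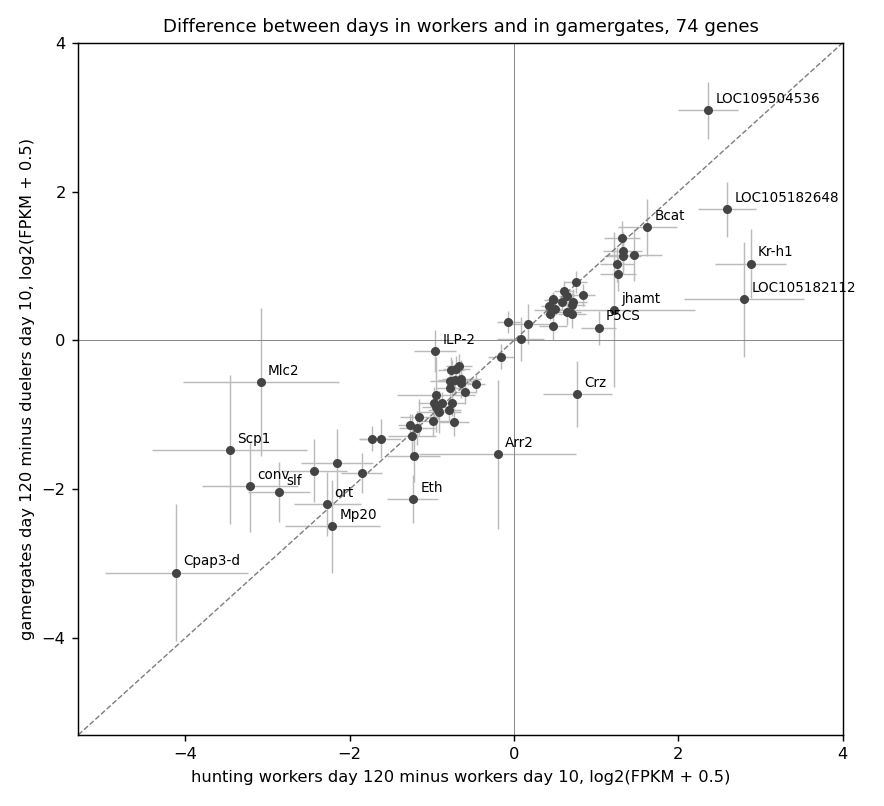
Log2 difference between days for 74 named genes, in hunting workers day 120 minus workers day 10 (horizontal) and in gamergates day 120 minus duelers day 10 (vertical), both in log2(FPKM + 0.5) with bars of 1 SE. The dashed line marks equal differences. Most genes lie near the line, with Kr-h1 at 2.88 and 1.03 and ILP-2 at -0.96 and -0.14 among those farther off. Vgn and the 4 genes below -5 on the horizontal axis are not drawn.

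Workers of day 20 stood between the groups in age but came from a further run, batch 5, so their levels are given without a test. Kr-h1 averaged 0.186 ± 0.21 FPKM at day 10 (n = 4), 0.352 ± 0.331 at day 20 (n = 4) and 5.39 ± 3.71 in hunting workers at day 120 (n = 9). Arginase averaged 2.07 ± 0.28, 1.91 ± 0.433 and 0.854 ± 0.132 FPKM at these days, and Miox 0.243 ± 0.171, 0.208 ± 0.0775 and 2.27 ± 3.31 FPKM. For these 3 genes the day 20 mean lay near that of day 10. Rab3 had 124 ± 24.6, 69 ± 11.1 and 63.7 ± 10.3 FPKM, Gat-1B 149 ± 31.5, 83.7 ± 14 and 79.6 ± 8.84 FPKM, and Sema1a 102 ± 13.2, 58.5 ± 8.88 and 59.2 ± 9.97 FPKM at days 10, 20 and 120. These 3 were near the day 120 level by day 20. The repair gene Fancd2 was at 4.87 ± 0.94, 12.3 ± 0.635 and 8.8 ± 2.29 FPKM, and the pseudogene LOC109504536 at 160 ± 95.3, 2507.5 ± 646 and 765 ± 232 FPKM, so that day 20 lay outside the range of the means of days 10 and 120. Galk and ort lay between, with 38.4 ± 2.03, 27 ± 5.84 and 16 ± 3.36 FPKM for Galk and 12.3 ± 2.47, 7.41 ± 1.55 and 2.22 ± 0.801 FPKM for ort.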

How the data were processed

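Gene levels were FPKM deposited by the authors in a single table (14001 genes). The tools bcl2fastq, STAR and featureCounts are listed per the submitters' processing notes. Their versions, and the genome build, were not given in the sources used here. Low FPKM values were whole multiples of a read (13445 of 13445 genes within 0.1 read), so reads and depth could be recovered. The deposited scaling followed median-of-ratios size factors (ratio 0.988 to 1.011) and not read totals. RefSeq matched 13989 identifiers and gave symbols to 4117.

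Tests used limma 3.58.1 in R 4.3.3 (lmFit, eBayes with trend) on log2(FPKM + 0.5), a scale that understates changes of low genes. The 9986 genes with FPKM of at least 1 in 4 or more of the 37 libraries were kept, and 7 group means and a run term within day 120 were fitted. Two-sided p-values were adjusted by Benjamini-Hochberg over all genes (threshold 0.05). Scripts were tested on simulated data. Since separate nests are not stated, p-values measure library spread, which may be technical.

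Members and lists were chosen with earlier results of these data known. Named genes were a fixed set (Kr-h1, ILP-2, Crz, Hr38, Ecr, usp, jhamt, per, cpx, Vgn, apd-3l) and genes from rules on size: up to 8 called genes per direction by log2 difference and 4 by FPKM difference, 4 called and 2 uncalled per list, 3 without a symbol per direction, and 3 by interaction. The text names part of these. Alternatives were pseudocounts 0.1 and 1, filters, scalings, array weights, limma-voom on recovered reads, a gene length trend, single runs, a replicate block and dropped libraries. Scaling to total reads and the 2 pairs of dropped libraries were added after seeing the data.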

Additional observations from a re-analysis of the deposited data

Results flagged for a closer look

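Some libraries lay far from the rest of their group on the log2(FPKM + 0.5) scale, by a gap test that marks about 1 in 20 groups by chance. Of 157 groups of values tested over the named genes, 10 were marked. In hunting workers they were Miox in replicate 4 (10.9 FPKM, others 0.511 to 2.09), ETHR in replicate 7 (4.01 FPKM, others 2.14 to 2.82), slf in replicate 8 (0.582 FPKM, others 0.0526 to 0.269) and Scp1 in replicate 2 (0.968 FPKM, others 0 to 0.268). In day 10 workers replicate 4 was low in Eth (1.45 FPKM, others 3.05 to 3.26), HisCl1 (0.596 FPKM, others 2.57 to 3.2) and Arr2 (6.74 FPKM, others 675 to 826). Replicate 1 was low in Thor (93.9 FPKM, others 129 to 138) and high in Lac (8.65 FPKM, others 6.32 to 6.5), and replicate 2 was high in jhamt (7.6 FPKM, others 0.0232 to 0.0857).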

How the results depend on the processing

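The count of 2460 called genes was 5771 with TPM scaling, 4874 with array weights, 1086 with hunting workers of batch 1 alone and 927 without day 10 worker replicates 1 and 3, and ran from 1290 to 3012 when single libraries were left out. With a replicate block it was 1588. The labels give no pairing of hunting workers with day 10 workers. Deviations of same-numbered libraries correlated at -0.172 to 0.474, and those of differently numbered libraries at -0.558 to 0.394. These few correlations cannot decide whether the numbers pair the samples. limma-voom on recovered reads gave 2461. The interaction with caste had 1 call with TPM scaling, 106 with array weights and 0 to 2 when single libraries were left out. The gamergate comparison had 6138 with array weights. Signs changed for 5 genes that were not called. Ecr was 0.35 with TPM, 0.16 with total reads and 0.08 without the length trend, and -0.18 to 0.02 on leaving out libraries. For usp the values were 0.29 with TPM, 0.01 with quantile normalization and 0.08 with total reads. Arr2 was 0.26, 0.23 and 0.05 under those scalings, 0.53 with batch 1 alone and 1.52 without day 10 worker replicates 1 and 3, and -1.86 to 0.42 on leaving out libraries. The gene per was -0.05 with batch 1 alone and -0.10 to 0.24 on leaving out libraries, and Vgn was -0.31 with array weights, -0.34 with batch 1 alone and -0.20 to 1.14 on leaving out libraries. The causes were not tested. Of 70 named genes that were called, 38 kept the call under every alternative run, 20 lost it without day 10 worker replicates 1 and 3, 14 lost it with TPM, 12 with batch 1 alone and 5 without day 10 worker replicate 3.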
